A study of Mus musculus with 9 samples.

Results

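The second day of spermatogonial stem cell (SSC) differentiation was examined by comparing the 3 RNA-seq libraries labelled 48 h with the 3 labelled 24 h, which are 6 of the 9 libraries of the series, and every expressed gene entered the comparison. The cells were a mouse SSC line that carries enhanced green fluorescent protein (EGFP-SSCs), labelled wild type, and all libraries come from this line. For both time points the cells had been mixed 1:1 with somatic cells from busulfan-treated testes of young mice, cultured in α-MEM with KnockOut serum replacement, BMP-4 and BMP-7, retinoic acid, activin A, testosterone, follicle-stimulating hormone and bovine pituitary extract, and sorted by flow cytometry for EGFP. The 3 libraries at 0 h, used here only for the first-day change, came from the same line kept on mouse embryonic fibroblasts with GDNF, basic FGF and EGF. Each group held 3 libraries labelled as biological replicates of the line, so p-values measure the spread between samples of 1 line. Poly-A RNA was sequenced.

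SSCs are the self-renewing spermatogonia of the testis, and GDNF and FGF signals keep them undifferentiated. Retinoic acid moves spermatogonia into the differentiating, KIT-positive state and later into meiosis, and it induces STRA8 on the way. BMP and activin ligands act through SMAD proteins, and the ID genes are direct targets of BMP SMADs.

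Library totals ran from 16825251 to 22201892 counts. Among the 6 libraries, the first principal component (48.7% of variance) separated the times and the next (18.5%) set 48 h replicate 2 apart from the other 5, with a score of 38.8 against -14.4 to 6.02. Mitochondrially encoded genes took the lowest share of counts in this library (2.26%) and the highest in 48 h replicate 3 (4.09%), so list counts are also given without 48 h replicate 2. The germ cell label was checked against the RNA helicase Ddx4 (VASA), which stood at 329 to 394 CPM (counts per 1000000 counts of the TMM-scaled library size) in all 6 libraries. Markers of somatic cells were present at both times. Those of mature Sertoli cells (Fshr), Leydig cells (Insl3) and leukocytes (Ptprc) were at 0.321 CPM or less in each of the 6. Other genes of these cell types were higher. The macrophage gene Csf1r was at 0.523 to 1.51 CPM, the Sertoli factor gene Sox9 at 5.61 to 9.41 CPM and the steroidogenic gene Star at 5.69 to 10.2 CPM. Stromal and smooth muscle genes were higher still. The sums of the marker lists are given after the matrix genes.

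From 24 h to 48 h, 1506 genes rose and 2226 fell of 17499 tested, 21.3% in either direction, 8.61% higher and 12.7% lower (by the quasi-likelihood test of edgeR at a p of at most 0.05 after Benjamini-Hochberg adjustment, which is the meaning of "called", "rose" and "fell" throughout). Most changes were small. The median size among called genes was 0.49 on the log2 scale, 1421 genes changed by at least 1.5-fold (525 higher, 896 lower) and 519 by at least 2-fold (203 higher, 316 lower). The median log2 fold change over all tested genes was -0.0045. The 24 h and 48 h values did not overlap in 3695 of the called genes, and in 39.6% of all tested genes. The count was 2044 without 24 h replicate 1, 1857 without 48 h replicate 1, 2255 without 48 h replicate 3 and 4356 without 48 h replicate 2, of which 3288 were shared with the full comparison. Genes that rose had transcripts of lower GC content (median 46.3%) than genes not called (49.5%) and genes that fell (54.1%). With GC and length offsets 3585 genes were called, 49.1% of them higher in place of 40.4%; 2585 were shared and none of these reversed. The part of base composition in single calls was not tested.

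**Figure D1:**
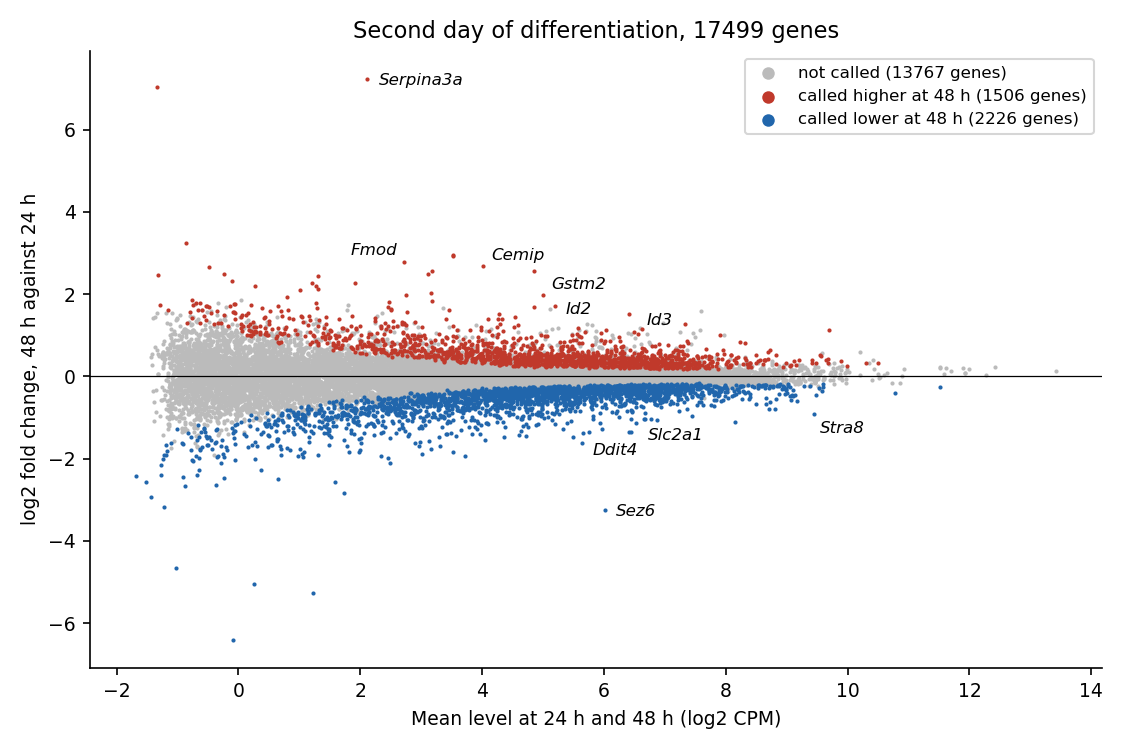
Change over the second day for every tested gene. The x axis is the log2 of mean CPM over the 6 libraries and the y axis the log2 fold change, 48 h over 24 h. Each point is a gene, coloured where called (1506 higher, 2226 lower), and most called genes lie within 1 log2 unit of no change.

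The genes with the largest falls included several that had risen the day before. Genes were ranked only where the 24 h and 48 h libraries did not overlap, so this separation is part of the choice. Sez6, a brain transmembrane protein encoded on chromosome 11 (77930800 to 77979048, GRCm38), stood at 123, 127 and 103 CPM in the 24 h libraries and at 12.6, 13.3 and 11.4 CPM at 48 h, a log2 fold change of -3.25 ± 0.11 (SE, n = 3 per group, edgeR adjusted p = 1.69e-06). Its 0 h values were 174, 222 and 235 CPM, so every library at each time lay below every library at the time before. In such bulk samples fewer cells that express a gene and less RNA per cell cannot be told apart. Zbp1, a sensor of Z-form nucleic acids, was at 17.6, 16.9 and 19.4 CPM at 24 h and at 4.71, 4.99 and 5.41 CPM at 48 h (log2 fold change -1.84 ± 0.12, edgeR adjusted p = 6.64e-05), after a first-day change of 3.07. The glucagon receptor gene Gcgr was at 21.9, 19.3 and 21.6 CPM at 24 h and at 5.70, 5.95 and 4.71 CPM at 48 h. The 48 h values also lay below its 0 h values of 6.32 to 7.41 CPM.

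Of the 10 largest falls among protein-coding genes of at least 10 CPM, 5 had risen over the first day (Gcgr, Zbp1, Kctd11, the adenylate kinase Ak5 and the ubiquitin ligase subunit Fbxo2), Sez6 and Ddit4 had fallen, and Igfbp5, Fam163b and Dhx58 had not been called. Ddit4, an inhibitor of mTORC1 that responds to stress, was at 67.0, 69.2 and 89.7 CPM at 24 h and at 25.7, 27.8 and 20.9 CPM at 48 h (log2 fold change -1.61 ± 0.14). It had fallen by 1.73 on the log2 scale over the first day, from 157 to 330 CPM at 0 h. The comparisons of the 2 days share the 24 h libraries, so a high or low 24 h value moves both changes in opposite directions.

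The largest rises were led by secreted and matrix genes. Fmod, a collagen-binding proteoglycan encoded on chromosome 1 (134037254 to 134048277), was at 1.72, 1.39 and 1.85 CPM at 24 h and at 10.9, 12 and 11.8 CPM at 48 h (log2 fold change 2.79 ± 0.16, edgeR adjusted p = 4.42e-05). Cemip, which takes part in hyaluronan breakdown, was at 3.68, 5.72 and 3.56 CPM and then at 29.3, 24.3 and 30.0 CPM (2.68 ± 0.18, edgeR adjusted p = 7.19e-05). In both genes all 48 h libraries lay above all 24 h libraries, which the choice of these genes required.

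Grem1, a secreted BMP antagonist encoded on chromosome 2 (113746164 to 113758646), was at 2.55, 2.62 and 2.64 CPM at 24 h and at 14.8, 11.3 and 20.4 CPM at 48 h (2.56 ± 0.22, edgeR adjusted p = 0.000189), its lowest 48 h value being that of replicate 2. The glutathione transferase Gstm2 was at 10.1, 11.2 and 17.5 CPM and then at 54.2, 46.5 and 53.1 CPM (1.98 ± 0.18, edgeR adjusted p = 0.0002). Ptn, which encodes the growth factor pleiotrophin, changed by 2.50, C1qtnf3 by 2.03, the smooth muscle actin Actg2 by 1.97, Fam129a by 1.83, Id2 by 1.72 and Ccn5 by 1.61. Of these 10 rises, 9 had also risen over the first day, and Grem1 had not been called (-0.01).

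A smaller group changed on the second day alone. It was defined as genes called at 48 h against 24 h with at least 1.5-fold change, not called at 24 h against 0 h with under 1.2-fold change, and called for the difference between the 2 changes; over all genes 25.5% were called on the first day (11.4% higher, 14.2% lower) and 14.0% of 18262 for the difference. The rule left 48 genes, 9 higher and 39 lower, 47 of them protein-coding, with first-day log2 fold changes of at most 0.26 in size and second-day changes of 0.64 to 2.56. These values chose the genes and are given as a description. All 48 were also called on the second day without 48 h replicate 2, which says little because that call chose them. In that setting 26 of the 48 still met the whole definition. Of the 48, 14 or 15 met it without a 24 h library, 22 to 27 without a 48 h library and 31 to 41 without a 0 h library. Mthfd1l lay just inside the first-day limit (0.26) and AI854703 just outside (0.28), and Ogg1 lay just inside the second-day limit (-0.64) and Rps12-ps3 just outside (0.58). With the first-day limit lifted the number was 155, and when 1 library was left out it ran from 15 to 91, being 15 to 17 when a 24 h library was left out, 24 to 31 when a 48 h library was left out and 91 without 0 h replicate 3.

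Among the 39 that fell were surface and synaptic proteins. Nectin1, a cell adhesion molecule encoded on chromosome 9 (43743984 to 43807461), was at 63.0, 78.0 and 78.4 CPM at 0 h, 73.9, 70.4 and 54.2 CPM at 24 h and 24.0, 25.5 and 22.3 CPM at 48 h, a second-day change of -1.48 ± 0.12 after -0.13. The netrin receptor Unc5a was at 42.0, 34.8 and 29.4 CPM at 24 h and 14.5, 14.2 and 14.0 CPM at 48 h (-1.32 ± 0.13 after 0.09). Both held their 0 h level through 24 h and had no 48 h library within the earlier range, a pattern that the definition of the group selects. The synaptic adhesion gene Lrfn1 (-1.14) and Fam163b (-1.69) were in the same group. The calcium/calmodulin kinase subunit gene Camk2b (-1.07) and the serotonin receptor gene Htr3a (-1.15) also belonged to it and are named after their values were seen.

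The group also held genes of innate immunity and signalling. Dhx58, which encodes the RNA sensor LGP2, was at 12.1, 11.1 and 11.6 CPM at 0 h, 10.6, 12.3 and 12.4 CPM at 24 h and 5.02, 3.82 and 2.99 CPM at 48 h (-1.59 ± 0.19 after 0.04, edgeR adjusted p on the second day 0.000755). Dtx1, an E3 ubiquitin ligase of the Notch pathway, was at 11.8, 15.2 and 17.7 CPM at 0 h. It went from 16.9, 16.9 and 18.1 CPM at 24 h to 6.65, 6.51 and 5.97 CPM at 48 h (-1.45 ± 0.11 after 0.23). Its 0 h values of 11.8 and 15.2 CPM lay below all 24 h values. In both genes the 48 h values were separate from the earlier ones, a pattern that the definition of the group selects. Among genes chosen after their values were seen, the antiviral RNA-binding gene Zc3hav1 had a second-day change of -0.79, the ubiquitin-editing gene Tnfaip3 -0.71, the transcription factor gene Stat3 -0.69, its mean falling from 265 CPM at 24 h to 166 CPM, and the germ cell RNA-binding gene Ybx2 -0.78. Dmrtc1c2 (-1.23) shares all of its transcript sequence with Dmrtc1c1, so its reads cannot be assigned to 1 gene with certainty.

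The 9 genes that rose included Grem1, Dlk1, Id3, Lef1, Vegfd, Fzd3, Arhgef3 and Slc40a1. Dlk1, an imprinted Notch-ligand-like gene, was at 46.2, 41.8 and 59.2 CPM at 0 h, 55.2, 60.4 and 57.7 CPM at 24 h and 121, 131 and 119 CPM at 48 h (1.08 ± 0.07). Id3 was at 56.3, 64.1 and 73.5 CPM, then 58.6, 62.1 and 63.8 CPM, then 127, 134 and 120 CPM (1.03 ± 0.07). For both genes every 48 h library lay far above all 6 earlier ones, a pattern that the definition of the group selects. Slc40a1, the iron exporter, changed by 0.66, and the Wnt receptor gene Fzd3 by 0.67. Promoters (the 250 bases before the RefSeq start) were at hand for 34 of the 48 genes. Of these, 70.6% held the GC box GGGCGG on either strand against 58.1% of promoters of tested genes and 32.9% of all 27025 promoters, and for the E-box CACGTG the shares were 5.88%, 8.43% and 6.05%. The other searched motifs, in the same order, were in 29.4% (CCAAT; 36.6% and 34.5%), 14.7% (AGGTCA; 10.7% and 13.8%), 23.5% (TGACG; 25.9% and 17.9%), 14.7% (ACGTG; 21.4% and 16.6%) and 0.00% (GAAANNGAAA; 2.52% and 3.04%), the last 2 motifs being chosen after values were seen.

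**Figure D2:**
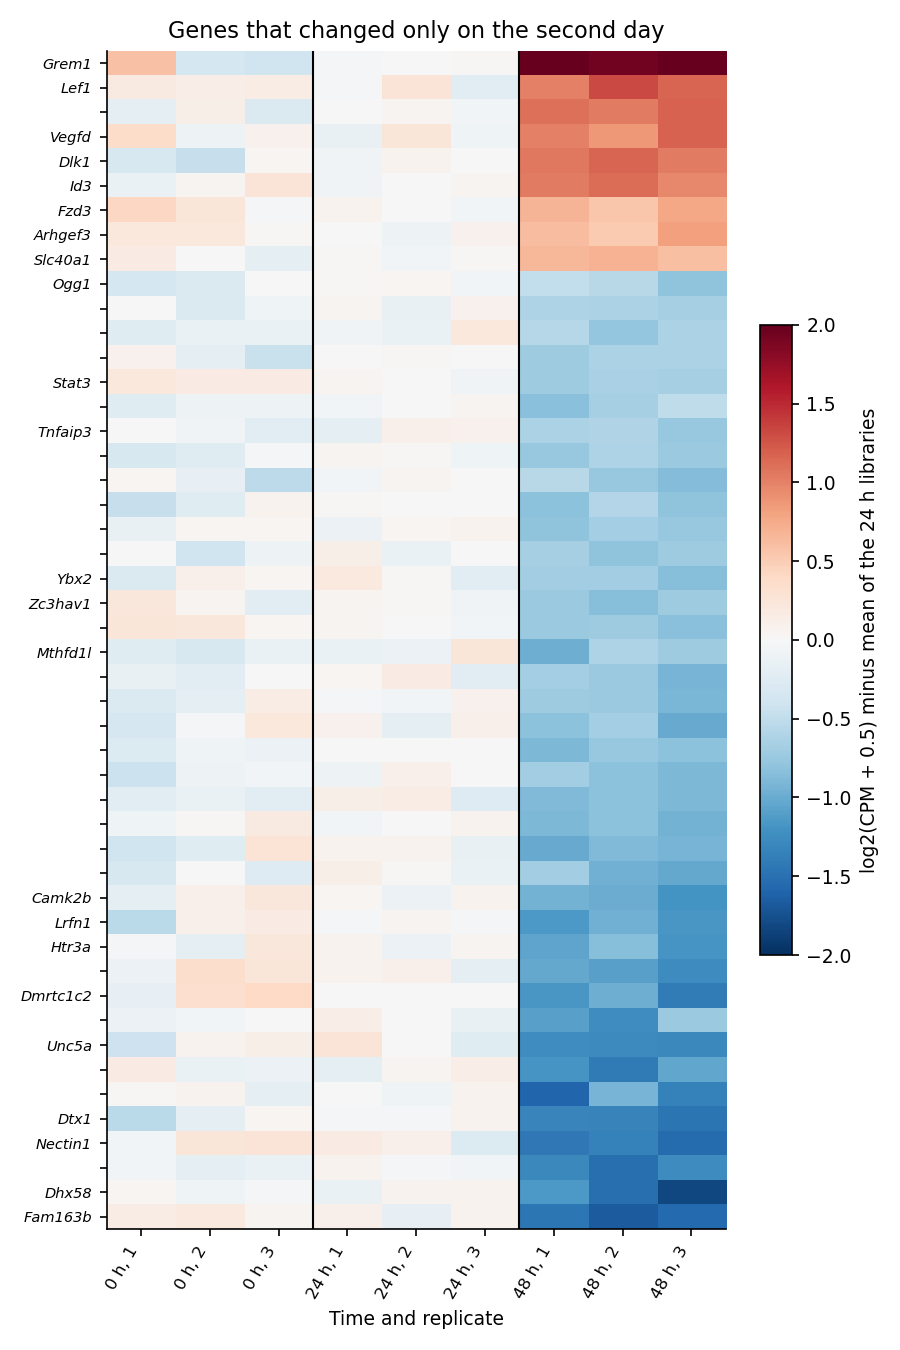
The 48 genes of the second-day group (rows) in the 9 libraries (columns, ordered 0 h, 24 h, 48 h). Colour is log2(CPM + 0.5) minus the gene's mean at 24 h, with names on the rows of genes the text describes. Columns at 0 h and 24 h are pale, 39 rows are lower and 9 rows higher at 48 h.

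Retinoic acid genes turned down after their first-day rise. The part of the Stra8 promoter closest to its RefSeq start is shown because Stra8 is the best known retinoic acid target among the named genes; it lies at chr6:34920698-34920947 (GRCm38.p6, plus strand), and capitals mark the 2 matches to AGGTCA, the sequence bound by a retinoic acid receptor monomer, 194 and 38 bases before the start. It was the only 1 of the 5 promoters at hand for retinoic acid genes that fell with such a match, against 10.7% of promoters of tested genes and 13.8% of all.
Stra8: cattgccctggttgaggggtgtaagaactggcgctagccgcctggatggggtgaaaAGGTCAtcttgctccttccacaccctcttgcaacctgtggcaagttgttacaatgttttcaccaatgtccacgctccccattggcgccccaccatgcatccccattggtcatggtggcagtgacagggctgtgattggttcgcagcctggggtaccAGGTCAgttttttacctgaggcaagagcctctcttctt

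Stra8, which starts the meiotic programme, was at 865, 897 and 974 CPM at 24 h and at 463, 481 and 510 CPM at 48 h (-0.92 ± 0.07, edgeR adjusted p = 0.000125), against 1.93 to 3.12 CPM at 0 h. All 48 h values were lower than all 24 h values and far above 0 h. Groups at 24 h and 48 h did not overlap in 39.6% of all genes. The retinoic acid-degrading enzyme gene Cyp26a1 was at 38.3, 39.8 and 37.8 CPM at 24 h and at 13.4, 16.2 and 12.9 CPM at 48 h (-1.46 ± 0.10, edgeR adjusted p = 7.19e-05), after 4.19 on the first day. The receptor gene Rarb changed by -1.53 after 5.72, though 52.5% of its transcript sequence also matched other genes. Aldh1a1, which makes retinoic acid, rose in both comparisons, by 4.71 and then by 0.68 (edgeR adjusted p = 0.0490), a second-day call lost under 6 of 15 alternatives. Over the retinoic acid list 13 of 26 tested genes had risen on the first day and 3 had fallen, against 11.4% and 14.2% of all genes. On the second day 2 of 28 rose and 10 fell (median -0.18), against 8.61% and 12.7%. Without 48 h replicate 2 the counts were 2 and 11, and with GC and length offsets 3 and 7 (median -0.04). The lower count was 6 without 24 h replicate 1, 48 h replicate 1 or 48 h replicate 3 and 5 in the fit of all 9 libraries, and the higher count 0 or 1 in each of these.

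Of 19 genes of differentiating spermatogonia, 8 fell and 2 rose (7 and 2 without 48 h replicate 2, and 7 and 1 in the fit of all 9 libraries or without 24 h replicate 1, and 8 and 1 without 24 h replicate 2). Of all genes 12.7% fell and 8.61% rose. Kit, the stem cell factor receptor, was at 592, 582 and 528 CPM at 24 h and at 321, 334 and 333 CPM at 48 h (-0.79 ± 0.07, edgeR adjusted p = 0.000187). The D-type cyclin gene Ccnd2 was at 403, 380 and 386 CPM and then at 186, 178 and 181 CPM (-1.11 ± 0.06, edgeR adjusted p = 2.18e-05). Neither gene had overlapping groups, nor did 39.6% of all genes, and Ccnd2, unlike Kit, had also fallen on the first day (-0.91). The low-affinity nerve growth factor receptor gene Ngfr (-1.08) and Ccnd1 (-1.05) fell, the homeobox gene Esx1 (0.81) rose, and Uchl1, the most abundant of the list, was not called (-0.09).

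Of 39 tested genes of meiotic entry and prophase, 5 rose and 3 fell, against backgrounds of 8.61% and 12.7%. The meiotic cohesin gene Rec8 was at 117, 110 and 105 CPM at 24 h and at 63.8, 65.6 and 61.1 CPM at 48 h (-0.81 ± 0.07, edgeR adjusted p = 0.000187). Its 48 h values were still above the 0 h range of 21.2 to 24.2 CPM. The RNA-binding gene Ythdc2, needed for the mitosis-to-meiosis switch, rose (28.6, 38.9 and 32.1 CPM, then 58.3, 39.4 and 62.1 CPM, 0.67 ± 0.17), with replicate 2 the lowest at 48 h. Mei4, a gene of meiotic break formation, changed by 0.41 and the meiotic cohesin gene Rad21l by 0.41. Without 48 h replicate 2, 12 of the list were higher and 3 lower, and in the fit of all 9 libraries none was higher and 2 were lower. The higher count was 0 without 24 h replicate 1 or 48 h replicate 3, 1 without 48 h replicate 1, 2 without 24 h replicate 2 and 3 without 24 h replicate 3, and with GC and length offsets it was 3 with 4 lower. Of 25 genes of the piRNA pathway and germ granules 2 rose (Rnf17, 0.51, and Spocd1, 0.36) and 2 fell (among them Tdrd7, -0.21), and the most abundant, Piwil2, was not called. The calls of Rnf17, Spocd1 and Tdrd7 were lost under 7, 10 and 13 of 15 alternatives. Of 18 tested germ cell identity genes 1 rose and 3 fell, among them Zbtb16 (PLZF, -0.41) and Dnd1 (-0.39), and their summed level was 2979 to 3234 CPM at 24 h and 2999 to 3331 CPM at 48 h.

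**Figure D3:**
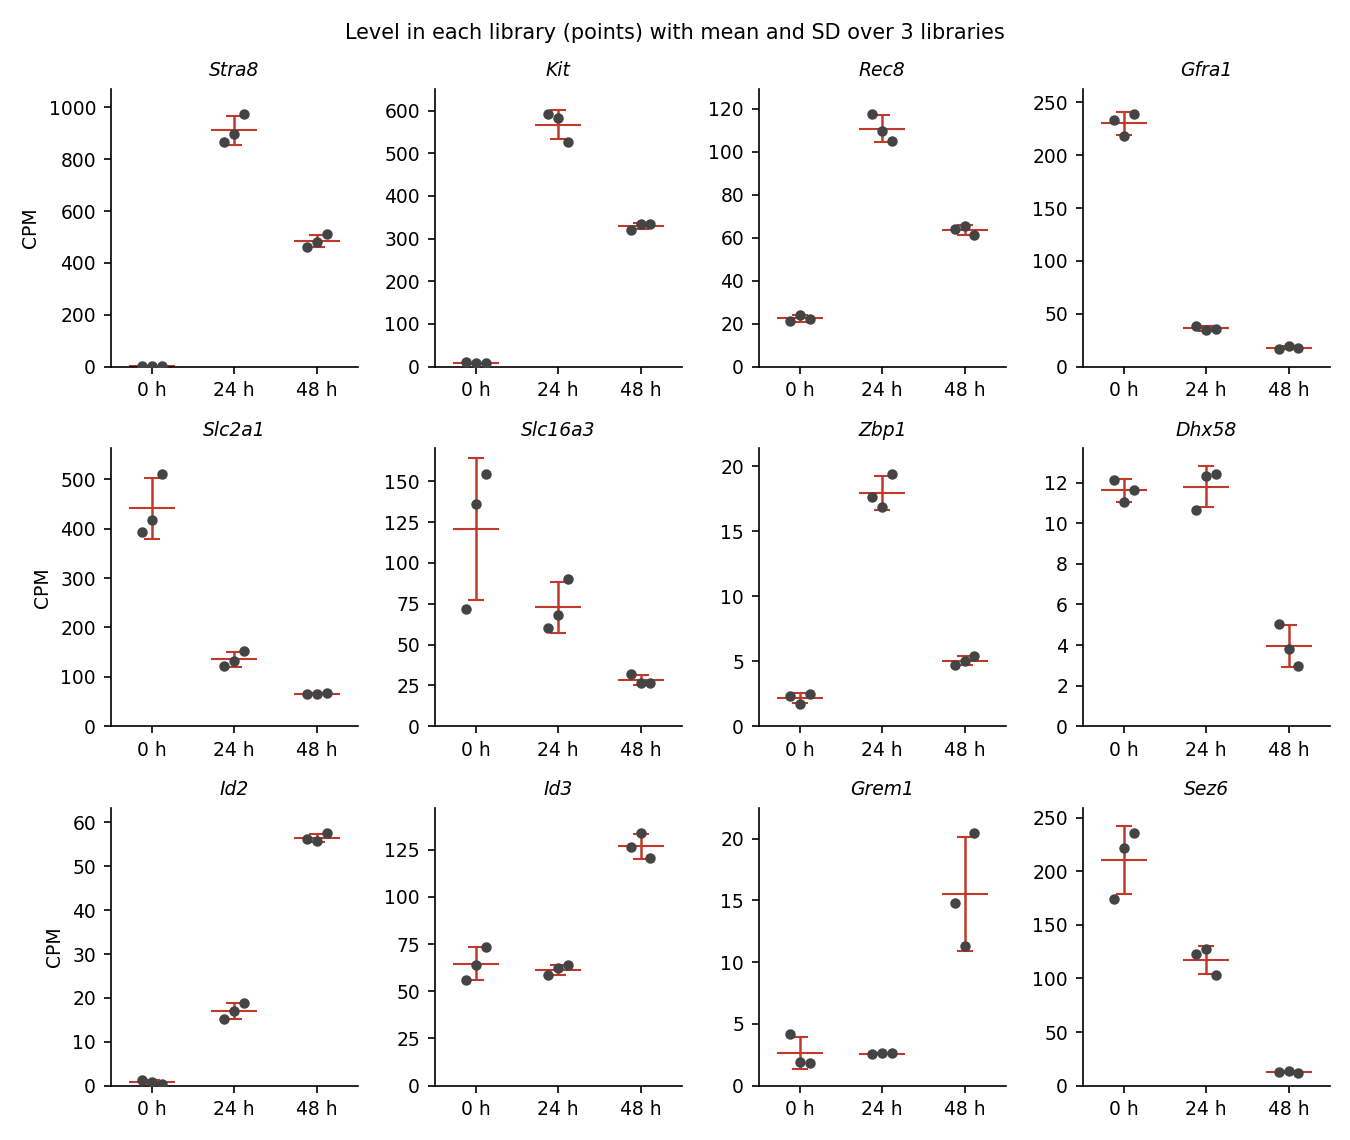
CPM of 12 genes in each library at 0 h, 24 h and 48 h, on a linear axis for each gene that starts at 0. Points are libraries and bars the mean with SD (n = 3). Stra8, Kit, Rec8 and Zbp1 are highest at 24 h, the means of Gfra1, Slc2a1, Slc16a3 and Sez6 go down at both steps, Dhx58 falls and Id3 and Grem1 rise at the second step, and Id2 rises at both.

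More stem cell genes fell than rose. Of 27 tested genes of undifferentiated spermatogonia 9 fell and 5 rose on the second day (9 and 4 without 48 h replicate 2, and 7 and 3 in the fit of all 9 libraries), where 17 had fallen and 2 had risen on the first. Both second-day counts were above the shares over all genes, 12.7% lower and 8.61% higher. Gfra1, the GDNF receptor, was at 233, 218 and 239 CPM at 0 h, 38.8, 34.6 and 35.7 CPM at 24 h and 17, 19.8 and 17.2 CPM at 48 h (-1.02 ± 0.09, edgeR adjusted p = 0.000187). The adhesion gene Cdh1 (-0.94), the GDNF-responsive factor gene Etv4 (-0.84) and Sall4 (-0.36) also fell. Id4, a marker of the most primitive spermatogonia, was at 7.02, 6.79 and 5.90 CPM at 24 h and at 12.7, 12.4 and 11.3 CPM at 48 h (0.87 ± 0.13, edgeR adjusted p = 0.0019), against 34.2 to 40.1 CPM at 0 h. Utf1, a chromatin protein of stem cells, was at 3.43, 3.42 and 3.07 CPM and then at 8.16, 7.21 and 7.03 CPM (1.16 ± 0.15, edgeR adjusted p = 0.00136). Both were separate from the 24 h range, as were 39.6% of all genes.

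ERK pathway output, which GDNF and FGF receptors drive, fell in 10 of 23 tested genes and rose in 1 (9 and 1 without 48 h replicate 2, and 6 and 1 without 48 h replicate 1), after falling in 20 of 23 on the first day. Over all genes 12.7% fell and 8.61% rose on the second day, and 14.2% fell on the first. The summed level of the list was 2514 to 2811 CPM at 0 h, 483 to 499 CPM at 24 h and 350 to 378 CPM at 48 h, with no overlap between times. Spred2, a feedback inhibitor of the pathway, was at 61.8, 59.4 and 50.8 CPM at 24 h and 26.5, 28.4 and 24.5 CPM at 48 h (-1.12 ± 0.10), and the immediate-early genes Ier3 (-0.99) and Junb (-0.99) fell by similar amounts.

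Glycolysis was the list with the highest share of called genes. Of 23 genes 19 fell and none rose, where 12.7% and 8.61% of all genes did (median log2 fold change -0.61 against -0.0045 over all genes). On the first day 22 had fallen (median -1.09), so the decline began before 24 h. The summed level was 4554 to 5455 CPM at 24 h and 3286 to 3357 CPM at 48 h. The count was 19 without 48 h replicate 2, 17 with GC and length offsets and 12 in the fit of all 9 libraries, none higher in each by edgeR. DESeq2 called none higher either, and 1 member had an unadjusted edgeR p under 0.05 on the higher side. In the fit without 24 h replicate 3, 17 were lower and 1 was higher. Promoters of the glucose importer Slc2a1 (chr4:119108495-119108744, plus strand) and the lactate exporter Slc16a3 (chr11:120948817-120949066, plus strand), both GRCm38.p6 from RefSeq, are shown because these genes carry glucose in and lactate out. Capitals mark ACGTG, the core of the element that hypoxia-inducible factors bind, searched on both strands.
Slc2a1: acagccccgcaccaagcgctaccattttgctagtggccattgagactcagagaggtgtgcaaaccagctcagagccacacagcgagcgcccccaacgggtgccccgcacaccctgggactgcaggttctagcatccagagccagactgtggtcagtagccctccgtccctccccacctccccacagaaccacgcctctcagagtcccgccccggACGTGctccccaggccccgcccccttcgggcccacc
Slc16a3: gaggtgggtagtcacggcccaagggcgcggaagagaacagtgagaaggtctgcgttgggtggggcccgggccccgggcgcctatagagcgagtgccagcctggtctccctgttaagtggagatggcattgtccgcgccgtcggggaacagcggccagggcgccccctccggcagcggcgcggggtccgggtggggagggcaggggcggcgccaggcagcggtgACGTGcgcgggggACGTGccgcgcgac

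The 5-base motif, which is also contained in the E-box CACGTG and was chosen after values were seen, occurred in 7 of the 19 promoters of the genes that fell (36.8%), against 21.4% of tested genes and 16.6% of all promoters. Slc16a3 was at 60.2, 67.9 and 90.3 CPM at 24 h and at 31.8, 26.7 and 26.3 CPM at 48 h (-1.38 ± 0.15, edgeR adjusted p = 0.000468). Slc2a1 was at 394, 418 and 511 CPM at 0 h, 123, 131 and 152 CPM at 24 h and 64.6, 65.8 and 67.0 CPM at 48 h (-1.05 ± 0.08, edgeR adjusted p = 0.000155). Both transporters thus had all 48 h libraries below all 24 h libraries, and 39.6% of all genes had groups that did not overlap.

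Within the pathway, the phosphofructokinase genes Pfkp (-1.15) and Pfkl (-1.13), the hexokinase gene Hk2 (-0.84), the aldolase gene Aldoa (-0.79), the lactate dehydrogenase gene Ldha (-0.68), the enolase gene Eno2 (-1.07) and Gapdh (-0.50) fell. Pkm, the most abundant (775, 741 and 944 CPM, then 625, 617 and 580 CPM), fell by 0.44, and 57.9% of its transcript sequence matched other loci. The 4 genes not called were Slc2a3, Pfkm, Ldhb and Slc16a1. The glucose importer gene Slc2a3 had gone from 442 to 549 CPM at 0 h to 61.1 to 67.7 CPM at 24 h and was at 63.1 to 68.3 CPM at 48 h (0.01). Its 24 h and 48 h ranges overlapped.

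Interferon and innate immune genes reversed. Of 31 tested, 20 fell and 1 rose (Ifit3, at 0.638, 1.28 and 1.61 CPM, then 3.09, 3.26 and 2.58 CPM), with a median of -0.56, whereas 19 had risen and 2 had fallen on the first day (median 0.88). The difference between the days was called in 21 of the 31, beside 14.0% of all genes. On the second day 12.7% of all genes fell and 8.61% rose. The summed level was 431 to 524 CPM at 0 h, 777 to 870 CPM at 24 h and 574 to 587 CPM at 48 h. Without 48 h replicate 2, 18 were lower and 2 higher, with GC and length offsets 20 and 1, and in the fit of all 9 libraries 13 and 0. Promoters of 3 of the genes that fell are printed because they hold 2 copies of GAAA spaced by 2 bases (GAAANNGAAA or its reverse complement, in capitals), the core of the site bound by interferon regulatory factors: Oas1a at chr5:120907526-120907775 (minus strand), Gbp3 at chr3:142559794-142560043 (plus strand) and Rsad2 at chr12:26456453-26456702 (minus strand), GRCm38.p6, each written 5′ to 3′ on the gene's strand.
Oas1a: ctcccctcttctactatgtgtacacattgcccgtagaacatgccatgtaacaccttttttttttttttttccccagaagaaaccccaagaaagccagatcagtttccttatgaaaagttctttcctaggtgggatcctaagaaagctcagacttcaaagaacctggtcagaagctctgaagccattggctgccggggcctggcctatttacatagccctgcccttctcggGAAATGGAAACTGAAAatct
Gbp3: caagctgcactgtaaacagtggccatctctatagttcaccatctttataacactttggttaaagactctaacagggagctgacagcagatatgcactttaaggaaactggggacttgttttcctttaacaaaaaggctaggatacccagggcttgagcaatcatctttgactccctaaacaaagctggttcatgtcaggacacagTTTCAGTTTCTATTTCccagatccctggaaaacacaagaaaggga
Rsad2: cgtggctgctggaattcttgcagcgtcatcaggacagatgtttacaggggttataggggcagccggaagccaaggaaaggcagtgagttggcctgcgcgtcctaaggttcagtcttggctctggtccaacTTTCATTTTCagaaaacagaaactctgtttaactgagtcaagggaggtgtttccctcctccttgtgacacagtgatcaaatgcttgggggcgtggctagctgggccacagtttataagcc

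The pair, chosen after values were seen, was in 5 of the 17 promoters at hand for genes that fell (29.4%; also Ifitm2 and Bst2), against 2.52% of promoters of tested genes and 3.04% of all. In Oas1a and Gbp3 the capitals cover 2 overlapping matches, the nearest 14 and 39 bases before the start, and the match in Rsad2 lies 120 bases before it. A match in these letters is no evidence of binding.

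Oas1a, an oligoadenylate synthase that senses double-stranded RNA, was at 8.47, 10.8 and 13.0 CPM at 0 h, 30.5, 25.0 and 35.2 CPM at 24 h and 11.1, 10.5 and 10.9 CPM at 48 h (-1.49 ± 0.13, edgeR adjusted p = 0.000187). Its 48 h values lay within the 0 h range, and 74.0% of its transcript sequence matched another locus. Rsad2, which encodes the antiviral protein viperin, was at 9.96, 7.91 and 8.64 CPM at 24 h and at 5.02, 4.64 and 3.90 CPM at 48 h (-0.98 ± 0.16). The GTPase gene Gbp3 was at 12, 13.8 and 13.2 CPM and then at 6.80, 7.64 and 5.87 CPM (-0.95 ± 0.13), which is above its 0 h range of 3.19 to 4.55 CPM. The class I MHC gene H2-D1 (-0.97), the immunoproteasome gene Psmb9 (-0.93), the cytosolic RNA sensor gene Ifih1 (-0.83) and Irf1 (-0.46) fell as well. Psmb9 had also fallen on the first day (-1.02).

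**Figure D4:**
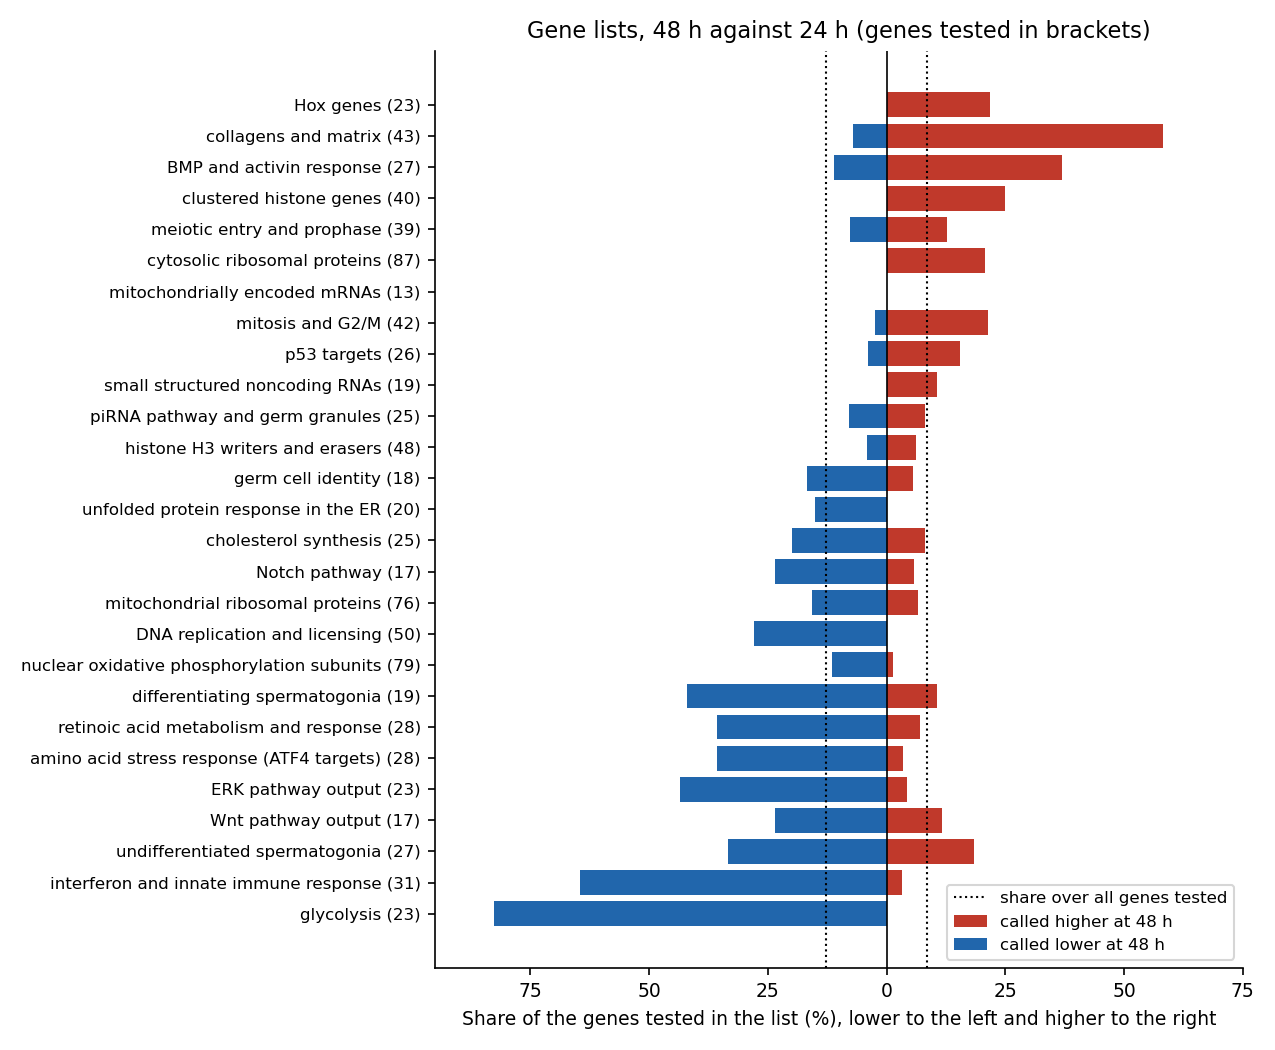
Share of tested genes in each list that rose (right) or fell (left) from 24 h to 48 h, in percent. Dotted lines mark the shares over all genes (8.61% higher, 12.7% lower). Glycolysis and interferon genes reach farthest to the left and matrix genes farthest to the right among the lists shown, which leave out the cell type markers.

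BMP and activin response genes were called more often as higher than lower. Of 27 tested 10 rose (among them Id1, Id2, Id3, Id4, Smad7, Smad9, Grem1 and Msx1) and 3 fell (among them Pmepa1), with a median of 0.31 and counts of 11 and 3 without 48 h replicate 2. The shares over all genes were 8.61% higher and 12.7% lower. All 4 ID genes, inhibitors of basic helix-loop-helix factors, rose. Id2 was at 15.3, 17 and 18.9 CPM at 24 h and at 56.2, 55.7 and 57.5 CPM at 48 h (1.72 ± 0.09, edgeR adjusted p = 1.95e-05). Id1 was at 53.1, 62.1 and 66.7 CPM and then at 136, 147 and 126 CPM (1.15 ± 0.09, edgeR adjusted p = 0.000175). On the first day Id1 (1.74) and Id2 (4.36) had risen, Id3 had not been called and Id4 had fallen by 2.50 on the log2 scale. The 4 genes rose together at 48 h against 24 h and not at 24 h against 0 h.

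Smad9, a BMP SMAD, was at 3.88, 5.08 and 3.81 CPM at 24 h and at 10.0, 11.2 and 10.9 CPM at 48 h (1.33 ± 0.15). Skil, a negative regulator of these signals, was the most abundant and was not called (0.08). Stromal and smooth muscle genes rose in the same libraries, and their part in the ID and Grem1 changes was not tested.

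In the Wnt list 2 of 17 tested genes rose and 4 fell. The shares over all tested genes, for this list and the Notch list below, were 8.61% higher and 12.7% lower. Lef1, a transcription factor of the pathway, was at 3.83, 4.81 and 3.32 CPM at 24 h and at 8.43, 10.5 and 9.46 CPM at 48 h (1.24 ± 0.17), and the secreted inhibitor gene Sfrp2 rose by 0.76. The feedback targets Sp5 (-0.73) and Axin2 (-0.44) and the factor gene Tcf7 (-0.36) fell, so the called members moved in both directions. Of 17 Notch genes 1 rose, the ligand gene Dll1 (0.87), and 4 fell: the glycosyltransferase gene Lfng (-1.02), the ligand gene Jag2 (-0.58), Notch1 (-0.48) and the target gene Hes1 (-0.28), the last call being lost under 10 of 15 alternatives. The lower count was 2 without 24 h replicate 1, 24 h replicate 2, 48 h replicate 1 or 48 h replicate 3.

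Of 50 genes of DNA replication and licensing 14 fell and none rose (14 and 2 without 48 h replicate 2), where 12.7% and 8.61% of all genes did. By edgeR 2 had an unadjusted p under 0.05 on the higher side, DESeq2 called 1 higher, and their summed level was 8233 to 8472 CPM at 24 h and 7294 to 7616 CPM at 48 h. E2f2, an activator of S-phase genes, was at 25.9, 24.0 and 25.4 CPM and then at 10.8, 14.4 and 13.1 CPM (-0.99 ± 0.11), and the clamp loader gene Rfc2 (-0.55), the thymidine kinase gene Tk1 (-0.52), Ccne1 (-0.51) and E2f1 (-0.43) fell. The helicase gene Mcm2 was not called (-0.19, edgeR adjusted p = 0.0692). The lower count was 8 without 24 h replicate 1 or 24 h replicate 3, 6 without 48 h replicate 1 and 3 in the fit of all 9 libraries. Of 42 mitosis and G2/M genes 9 rose and 1 fell (12 and 1 without 48 h replicate 2). The higher count was 2 without 24 h replicate 1, 4 without 24 h replicate 2, 3 without 48 h replicate 1, 4 without 48 h replicate 3 and 1 in the fit of all 9 libraries. The mitotic kinesin gene Kif11 (0.54), the cyclin gene Ccnb1 (0.43), the checkpoint kinase gene Ttk (0.39) and Ube2c (0.38) rose, the kinase gene Aurkc (-0.67) fell, and Top2a was not called (0.05). Other genes matched 75.9% of the Aurkc and 50.5% of the Ccnb1 transcript sequence.

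Enzymes of histone H3 were mostly not called: of 48 writers and erasers 3 rose and 2 fell (8 and 3 without 48 h replicate 2). Over all genes 8.61% rose and 12.7% fell. Ehmt1 and Ehmt2, which dimethylate H3 lysine 9, and Aurkb, which phosphorylates H3 serine 10, are given because the study examined these marks. Ehmt1 was at 185, 173 and 167 CPM at 24 h and 193, 197 and 197 CPM at 48 h (0.15 ± 0.06, edgeR adjusted p = 0.116). Ehmt2 was at 981, 902 and 963 CPM and then at 1079, 1138 and 1049 CPM (0.19 ± 0.07, edgeR adjusted p = 0.0694), and Aurkb was at 117, 114 and 106 CPM and then at 105, 108 and 99.6 CPM (-0.12 ± 0.07, edgeR adjusted p = 0.218). The groups did not overlap for either of the methyltransferase genes, as for 39.6% of all genes, and neither passed the test. The H3 lysine 27 demethylase gene Kdm6b (-0.80) and the deacetylase gene Hdac3 (-0.37) fell, and Kdm6a (0.48), the acetyltransferase gene Ep300 (0.36) and Brd1 (0.29) rose. Of 40 tested clustered histone genes 10 rose and none fell. The higher count was 3 without 24 h replicate 1 or 24 h replicate 2, 5 without 48 h replicate 1 or 48 h replicate 3, 6 without 48 h replicate 2 and 1 in the fit of all 9 libraries. They included Hist1h2bc (0.78), the linker histone gene Hist1h1c (0.47) and the H3 gene Hist1h3e (0.29), and 80.6% of the transcript of Hist1h3e matches other loci. Most such transcripts lack a poly-A tail, so their level in poly-A libraries is not their level in cells.

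Genes of protein synthesis and mitochondria changed little. Of 87 cytosolic ribosomal protein genes 18 rose and none fell (median 0.19), after 25 had fallen on the first day, and the count was 15 without 48 h replicate 2, 31 with GC and length offsets and 1 in the fit of all 9 libraries. It was 4 without 24 h replicate 1, 5 without 24 h replicate 2, 49 without 24 h replicate 3, 6 without 48 h replicate 1 and 7 without 48 h replicate 3. A lower call was made for 1 gene without 24 h replicate 2 and for 1 with no filter on low counts. Rps12 (0.53) and Rpl23a (0.45) were among those that rose, and Rpl4, the most abundant, was not called (0.18). Other genes matched 71.4% of the Rpl23a and 44.1% of the Rpl4 transcript sequence. Of 76 mitochondrial ribosomal protein genes 12 fell and 5 rose, and of 79 nuclear oxidative phosphorylation subunits 9 fell and 1 rose. Over all genes the shares were 12.7% lower and 8.61% higher. Fold changes, called or not, were negative in 57 of the 76 and 62 of the 79 (medians -0.11 and -0.13). The lower count of the ribosomal list was 1 without 24 h replicate 3 or 48 h replicate 1 and 2 without 24 h replicate 1 or 48 h replicate 3. That of the subunits was 3 without 24 h replicate 3 or 48 h replicate 1, 4 without 24 h replicate 1, 5 without 48 h replicate 3 and 20 without 24 h replicate 2, and both were 0 in the fit of all 9 libraries. Those that fell included Uqcrq (-0.46) and Cyc1 (-0.45) of complex III and Sdhb (-0.43) of complex II. None of the 13 mitochondrially encoded mRNAs was called by edgeR's quasi-likelihood test or DESeq2, or had an unadjusted p under 0.05. With no filter on low counts 4 were called higher and 2 lower, with GC and length offsets 1 lower, with these offsets and the replicate number as a block 3 lower, and without 48 h replicate 2, 1 higher. The most abundant, mt-Co1, ranged from 8161 to 14591 CPM within the 6 libraries, and 79.7% of its transcript sequence matched other genes.

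Cholesterol synthesis, of which 19 of 25 genes had fallen on the first day (median -1.19), held its 24 h level: 5 genes fell and 2 rose on the second. The lower count was 1 without 24 h replicate 1, 24 h replicate 3, 48 h replicate 1 or 48 h replicate 3 and 3 without 24 h replicate 2 or 48 h replicate 2. The summed level was 4439 to 4806 CPM at 0 h, 1853 to 1902 CPM at 24 h and 1852 to 1918 CPM at 48 h. Dhcr7, the last enzyme of one branch, rose by 0.33. Of 28 tested targets of ATF4, a factor of the amino acid stress response, 10 fell and 1 rose (12 and 1 without 48 h replicate 2, and 5 and 0 in the fit of all 9 libraries). They included Cebpb (52.3, 57.2 and 60.0 CPM, then 23.6, 26.4 and 20.4 CPM, -1.28 ± 0.10), Vldlr (-1.24) and the serine synthesis gene Phgdh (-0.71). Of the Phgdh transcript sequence, 79.5% also matched other genes. Of 20 genes of the unfolded protein response 3 fell (Sdf2l1, Herpud1 and Creld2, -0.46 to -0.30) and none rose by edgeR, though 4 had an unadjusted p under 0.05 on the higher side and DESeq2 called 2 higher. The lower count was 1 without 24 h replicate 3 and 0 without 24 h replicate 1, 48 h replicate 1 or 48 h replicate 3. Of 26 p53 targets 4 rose, among them Ccng1 (0.56), Polk (0.54) and Mdm2 (0.18), and 1 fell (Plk3, -0.86), where 8.61% and 12.7% of all genes did. The higher count was 1 without 24 h replicate 1 or 48 h replicate 1 and 2 without 24 h replicate 2 or 48 h replicate 3.

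Of 43 collagen and matrix genes 25 rose and 3 fell (Nid2, Eln and Mgp), with a median of 0.36, after 31 had risen on the first day (median 1.64). Among all genes 8.61% rose and 12.7% fell, and 11.4% had risen on the first day. The summed level was 3351 to 3504 CPM at 0 h, 6011 to 6883 CPM at 24 h and 8033 to 8762 CPM at 48 h. Without 48 h replicate 2, 29 were higher and 3 lower, and in the fit of all 9 libraries 11 and 2. Postn, a matrix protein of fibroblasts, was at 29.6, 55.4 and 46.8 CPM at 24 h and at 140, 90.6 and 150 CPM at 48 h (1.52 ± 0.24, edgeR adjusted p = 0.00266). Aspn was at 9.63, 2.69 and 13.0 CPM at 48 h and at 1.86 to 3.26 CPM at 24 h, so replicate 2 stayed within the 24 h range. Fbln5 (1.30) and Prelp (1.26) rose, and Col1a1, the most abundant, changed by 0.32 (1013 to 1232 CPM, then 1302 to 1491 CPM).

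Of 17 markers of peritubular myoid and smooth muscle cells 10 rose and none fell (13 without 48 h replicate 2), and their sum went from 480 to 585 CPM at 24 h to 708 to 816 CPM at 48 h. For this and the other marker lists, the shares over all genes were 8.61% higher and 12.7% lower. Acta2, smooth muscle actin, was at 81.8, 97.8 and 114 CPM and then at 173, 144 and 187 CPM (0.77 ± 0.13), against 1.49 to 2.59 CPM at 0 h. Of 15 tested stromal markers 6 rose and 1 fell (sum 2281 to 2666 CPM, then 3043 to 3355 CPM). The higher count was 3 without 24 h replicate 1 or 48 h replicate 1, 4 without 24 h replicate 3 and 0 in the fit of all 9 libraries, and the list holds collagen genes. Those that rose included Col3a1 (0.42), Col1a2 (0.43), Dcn (0.70) and Thy1 (0.50). Of 16 tested Sertoli markers 5 rose and 1 fell, Clu (0.75) and Ctsl (0.35) being among those that rose. Amh, anti-Mullerian hormone of immature Sertoli cells, was at 3.93, 5.29 and 8.15 CPM at 24 h and at 1.2, 0.521 and 0.759 CPM at 48 h (-2.83 ± 0.36, edgeR adjusted p = 0.00116). The Sertoli sum moved the other way, from 236 to 319 CPM up to 329 to 345 CPM.

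Of 8 tested endothelial markers 4 fell (2 without 48 h replicate 1) and none rose, where 12.7% and 8.61% of all genes did. Those that fell included Vwf (-0.81), Cdh5 (-0.78) and Egfl7 (-0.61), and the sum of the list went from 59.7 to 67.3 CPM down to 40.4 to 45.8 CPM. None of 5 tested Leydig markers was called by edgeR's quasi-likelihood test, 1 had an unadjusted p under 0.05 and DESeq2 called 1 (sum 62.1 to 85.0 CPM, then 64.1 to 68.0 CPM), and of 4 tested macrophage markers 1 rose (sum 7.75 to 13.6 CPM, then 8.64 to 10.4 CPM). Haemoglobin genes, the products of red cells and chosen after their values were seen, went nearly to 0: the 4 genes Hba-a1, Hba-a2, Hbb-bs and Hbb-bt together stood at 7.21, 8.98 and 13.0 CPM at 24 h and at 0.105, 0.391 and 0.152 CPM at 48 h. At 0 h their sum was 0.623, 0.595 and 0.448 CPM, so it was high only in the 24 h libraries. For Hba-a1 the 24 h libraries held 272 counts and the 48 h libraries 7, a ratio of 40.4 per library size (exact 95% binomial interval 19.3 to 101, counting error only). The part of these cell types in the other changes was not tested.

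**Figure D5:**
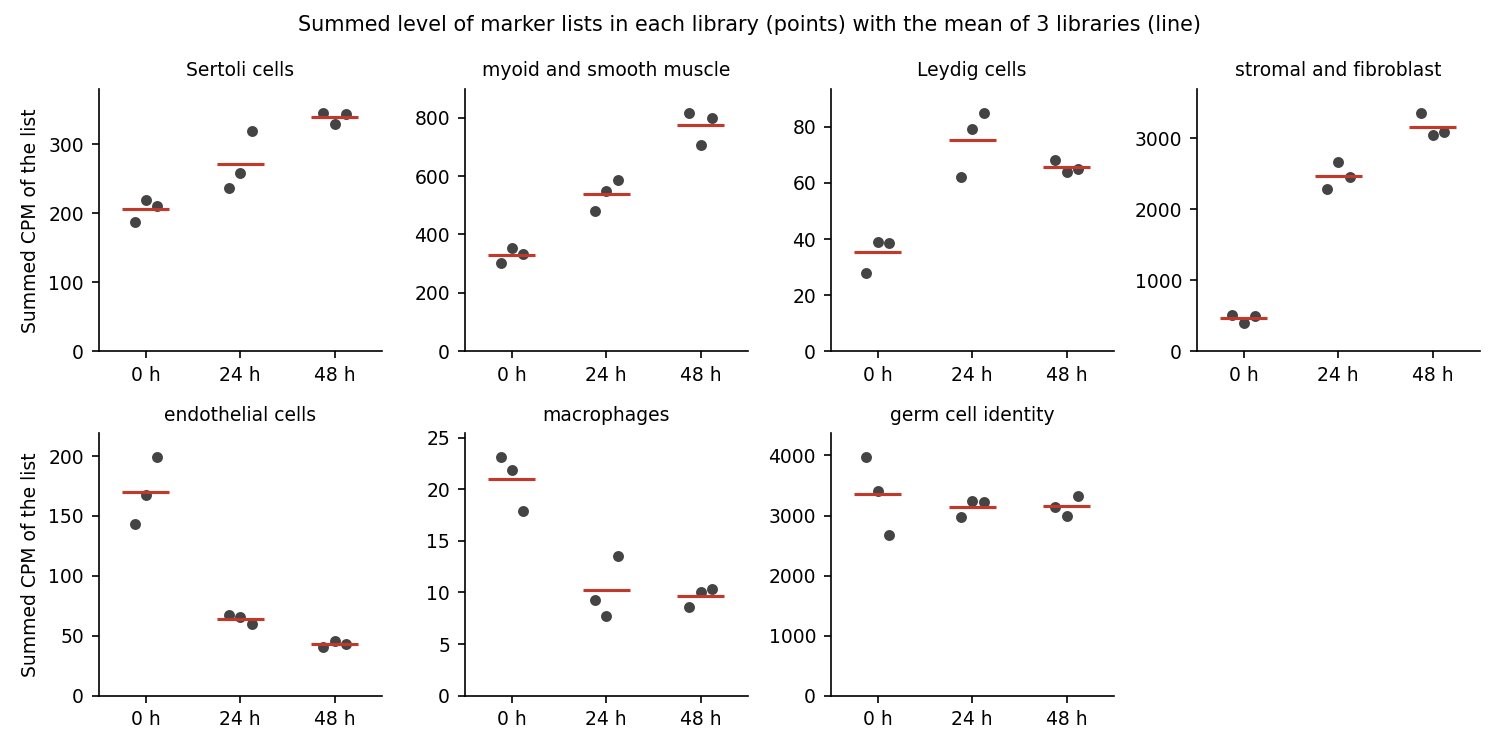
Summed CPM of the marker list of each somatic cell type in the 9 libraries, with a separate axis for each type that starts at 0. Points are libraries and lines the mean (n = 3), and the last panel shows the germ cell identity list. Stromal and smooth muscle sums are higher at 48 h than at 24 h in all libraries, and the endothelial sum is lower.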

How the data were processed

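Poly-A RNA-seq of 9 libraries was used, 3 each at 0 h, 24 h and 48 h. The authors deposited 1 table of raw read counts per library. The submitters' processing notes name fastp, HISAT2, featureCounts and GRCm38. Whether counting used strand is not given in the sources used here, so reads of overlapping genes may be shared. The tables held 46078 gene identifiers, of which 45229 matched GENCODE M21. The other 849 held at most 0.121% of a library's counts.

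edgeR 4.0.16 (R 4.3.3) was used with default filtering and TMM scaling, and fitted separately to the 6 libraries of each day. The difference between the days was a contrast in all 9 libraries. Genes were called at a Benjamini-Hochberg adjusted p of at most 0.05. CPM are counts divided by the library total times its TMM factor and multiplied by 1000000, log2 fold changes are given with SE, and intervals cover counting error only. Genes named are the 10 largest rises and 10 largest falls (protein-coding, at least 10 CPM in 1 group, groups not overlapping), 8 of the second-day group in each direction where there were as many, up to 6 called members of each list (at least 5 CPM) with its most abundant member, and Stra8, Kit, Rec8, Gfra1, Ehmt1, Ehmt2 and Aurkb. Some genes that this rule names are not reported here. The members and lists were chosen with earlier results of these data known. Shared transcript sequence was measured with blastn 2.17.0. DESeq2 1.42.0 and the other alternatives are given with their effect.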

Additional observations from a re-analysis of the deposited data

Results flagged for a closer look

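The change of the second day differed from that of the first in 2562 genes by edgeR's quasi-likelihood test of the difference over all 9 libraries, in which the 24 h libraries enter both changes. Among the genes with the largest second-day changes, the difference (second-day minus first-day log2 fold change) was -4.89 for Zbp1, -4.08 for Fbxo2, -3.58 for Gcgr, -3.12 for Kctd11 and -3.10 for Ak5, which rose and then fell. It was -2.40 for Sez6, which fell on both days. For Fam163b and Dhx58, which fell on the second day alone, it was -1.55 and -1.61, and for Grem1, which rose on the second day alone, it was 2.58. For genes that rose on both days it was -3.15 for Actg2, -2.63 for Id2, -2.56 for Gstm2 and -1.67 for Ccn5.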

How the results depend on the processing

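No called fold change of a named gene changed sign. Medians of the piRNA, germ cell identity, mitochondrially encoded, cholesterol, unfolded protein response, Notch, small RNA and macrophage lists changed sign under some alternatives, such as from 0.13 to -0.14 for the mitochondrially encoded mRNAs with GC and length offsets. The second-day count of 3732 genes was 1043 (285 higher, 758 lower) in the fit of all 9 libraries, where the spread is shared with 0 h, and 1421 (525 higher, 896 lower) with a minimum of 1.5-fold. Leaving out 1 library gave 1857 to 4356 genes (684 to 2094 higher, 1097 to 2262 lower), 2607 to 6023 on the first day and 1295 to 4336 for the difference between days. The second-day group of 48 had 82 genes with no minimum fold, 21 at 2-fold or more, 110 with up to 1.5-fold on the first day, 288 without the test of the difference and 15 to 91 with 1 library left out. DESeq2 gave 61, which held all 48, and library size alone gave 55, which held 30.

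The labels do not say whether replicate numbers pair the samples. Same-numbered 24 h and 48 h libraries deviated from their group means with correlations of 0.000716, -0.0548 and 0.107. Pairs with unlike numbers ranged from -0.233 to 0.194. Deviations from a mean of 3 libraries are tied to each other, so these values cannot decide whether samples were paired. With the replicate block 2497 genes were called (921 higher, 1576 lower), 3007 on the first day and 1763 for the difference. With GC and length offsets and the block it was 2730 (1316 higher, 1414 lower).

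Of 171 named genes 153 were called, 84 of them under all 15 alternatives, and the fit of all 9 libraries ended the call of 67. Calls with small changes were lost most often, such as those of Mdm2, Tdrd7, Mrpl41, Lss and Mvk. Totals of 16825251 to 22201892 counts limit what can be seen of genes under about 1 CPM. No member on the uncalled side of the ribosomal, histone, Hox, small RNA, smooth muscle (all lower) and endothelial (higher) lists had an unadjusted edgeR p under 0.05 or a DESeq2 call, 0 in each list. Other edgeR settings did call 1 ribosomal gene lower, without 24 h replicate 2, and 1 with no filter.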

Other observations

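Hox genes, which set position along the body axis, were at low levels. Of 23 tested, 14 of which could be tested on the first day, 5 rose and none fell (among them Hoxb9 and Hoxb13). Over all genes 8.61% rose and 12.7% fell. Hoxa7 and Hoxc5, also among those that rose, entered the test only through their 48 h level. Genes that enter in this way can hardly be called lower, so the lack of falls is partly set by the filter. The sum over the list was 31.7 to 35.6 CPM at 24 h and 47.7 to 49.9 CPM at 48 h. Hoxb9 was at 1.37, 1.60 and 2.93 CPM and then at 4.34, 4.12 and 5.06 CPM (log2 fold change 1.18, edgeR adjusted p = 0.0170). The count was 2 without 24 h replicate 2, 48 h replicate 1 or 48 h replicate 2, 3 without 24 h replicate 3, 1 without 48 h replicate 3, and 0 without 24 h replicate 1 or in the fit of all 9 libraries.

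Some genes were too low at 0 h and 24 h for the first-day test but entered the second-day test, which they could do only through their 48 h level. There were 35 such genes among those called with at least 1.5-fold change, and 2 of them exceeded 2 CPM at 48 h. Most already had some counts at 0 h and 24 h. The mean of Laptm5, for example, was 0.928 CPM at 0 h, 0.217 CPM at 24 h and 0.681 CPM at 48 h. Serpina3a, a serine protease inhibitor gene on chromosome 12 (104112724 to 104121896, GRCm38), had no count in the 0 h libraries, 2, 0 and 1 counts at 24 h and 154, 198 and 178 counts at 48 h. The ratio of summed counts per library size was 170 (exact 95% binomial interval 57.9 to 827, counting error only).

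Of 19 tested small structured noncoding RNAs 2 rose by edgeR's quasi-likelihood test, Rn7sk and Rpph1, RNAs that lack a poly-A tail. The share that rose over all genes was 8.61%. Rn7sk was at 8.44, 6.73 and 9.96 CPM at 24 h and at 48.3, 48.8 and 51.5 CPM at 48 h (2.55 ± 0.12, edgeR adjusted p = 1.95e-05), with 63.6% of its sequence found elsewhere. The annotated genes Gm24447 (2.92) and Gm26315 (2.95), chosen after their values were seen, also rose. They are the loci that share sequence with Rn7sk, so all 3 may hold the same reads.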
